A study of Mus musculus with 6 samples.

Results

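The class I antigen presentation pathway was examined in immortalized mouse proximal tubular cells through 10 genes, namely B2m, H2-K1, H2-D1, Tap1, Tap2, Tapbp, Psmb8, Psmb9, Psmb10 and Erap1. All probes annotated to these symbols were taken, which gave 22 of the 45281 probes on the array and 10 of the 19057 genes. Each probe is described on its own, since probes of a gene can differ. Cells of strain background C56BL/6, as the label spells it, carried a stable short hairpin RNA delivered by lentivirus, either against GFP (Control, 3 arrays) or against Glis2 (Glis2KD, 3 arrays), and were harvested 7 days after infection. No group without a hairpin was analysed here, and the labels do not say whether the arrays within a group stem from separate infections, or whether the infected populations were clones or pools. The p-values therefore measure only the spread between these arrays, which may be technical. The comparison asks which pathway transcripts differ between cells with the Glis2 hairpin and cells with the GFP hairpin.

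Class I molecules carry peptides from proteins made inside the cell to its surface, where cytotoxic T cells read them. Peptides are cut by the proteasome, whose catalytic subunits can be exchanged for the immunoproteasome subunits, moved into the endoplasmic reticulum by the TAP transporter, trimmed there, and loaded onto a heavy chain paired with beta-2 microglobulin. Interferons and NF-kappaB raise transcription of most genes of the pathway, and renal tubular epithelium is known to increase surface class I in inflamed kidneys.

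Values are deposited linear intensities that still contain background. The background limit was set at 137, the most frequent intensity plus 3 SD of the values below it, and was compared with each probe's mean intensity. Of the 22 probes, 15 lay above that limit, and they covered 9 genes. Erap1 lay below it on all 3 of its probes. Markers of proximal tubule were above the limit for 2 of 10 genes measured, the water channel Aqp1 and the cadherin Cdh16, while the other 8, Lrp2, Cubn and Hnf4a among them, were below. Of 11 leukocyte markers, 9 were below the limit, with the pan-leukocyte gene Ptprc at 118 ± 2.23 in control and 116 ± 14.6 in knockdown arrays on its brightest probe (SD, n = 3), and the summed intensity of the list ran from 1406 to 1426 in control and from 1340 to 1442 in knockdown arrays. Glis2 was lower on its brighter probe, falling from 247 ± 26.4 with the GFP hairpin to 169 ± 7.39 (SD, n = 3; limma's adjusted p = 7.16e-05).

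The light chain B2m, the peptide transporter subunit Tap2, the immunoproteasome subunit Psmb9 and one probe of the heavy chain H2-D1 were lower in the knockdown, by between 21.6% and 28.8% of the control mean. These intensities include background, which compresses the changes of the dimmer Tap2 and Psmb9 more than those of B2m. The percentages therefore do not compare the size of change between these genes. In limma, with p-values adjusted over all probes, 5 of the 22 probes were called lower and 0 higher, and 17 were not called. At an unadjusted p under 0.05 there were 6 probes, of which 1 was higher. On the whole array 15.6% of probes were called, with 7.76% lower and 7.84% higher, and among probes above the background limit 37.6% were called, with 18.7% lower and 18.9% higher. The share of pathway probes called was 22.7%, or 33.3% of those above the limit, so the share above the limit was near that of the array. The median log2 fold change was -0.049 over the 22 probes and 0.00026 over all probes. The groups did not overlap for 5 of the 22 probes, against 26.3% of all probes. In bulk RNA, fewer cells of a type and less RNA per cell cannot be told apart.

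**Figure D1:**
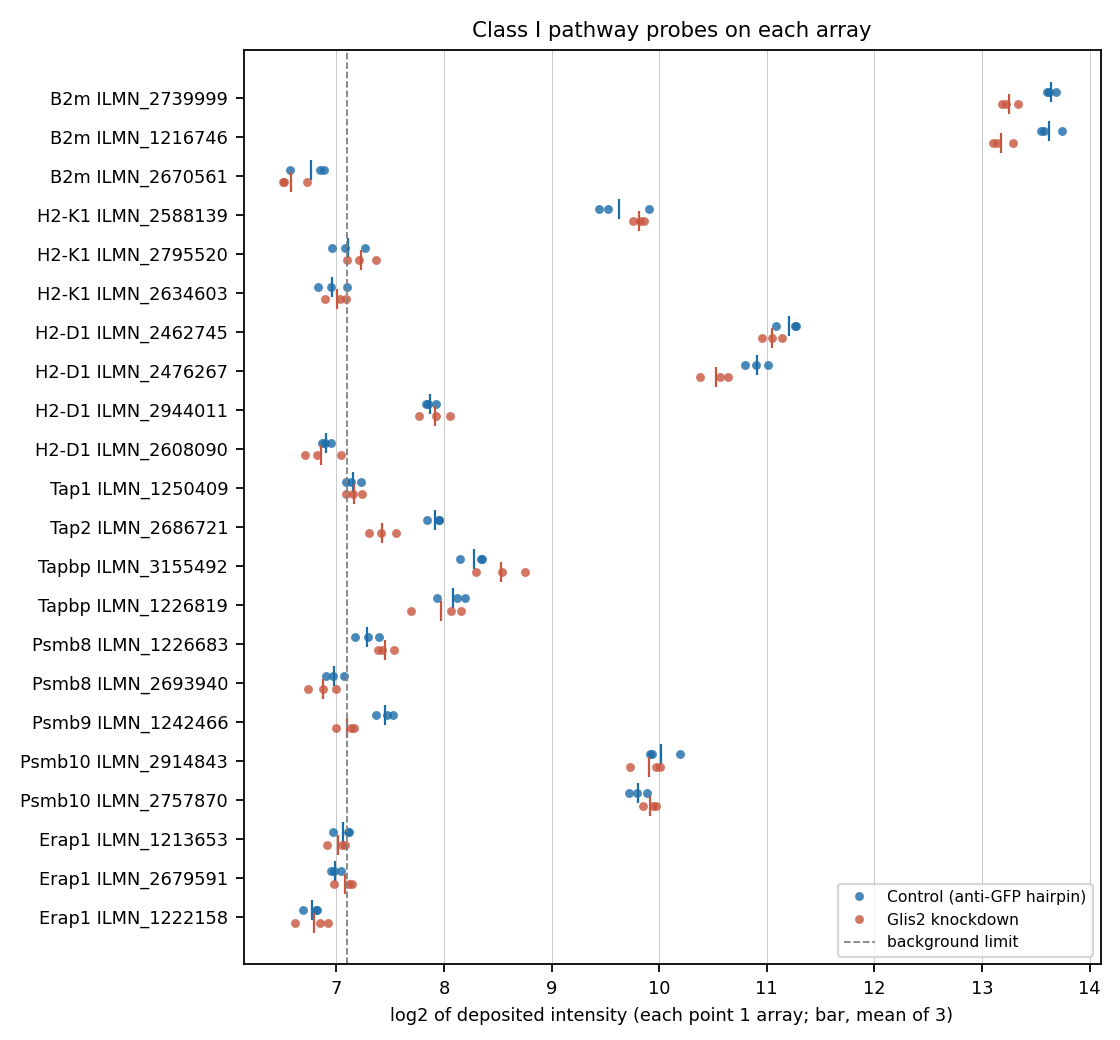
The log2 deposited intensity of each of the 22 pathway probes is plotted on the 6 arrays, control in blue and knockdown in red, with a bar at the mean of 3 arrays and a dashed line at the background limit of 137. The groups are separate for both bright B2m probes, H2-D1 ILMN_2476267, Tap2 and Psmb9, and the Erap1 probes lie around the limit.

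The control regions of the light chain and of both classical heavy chains are shown first because they hold the motifs through which interferon and NF-kappaB signals are known to reach these genes. They are RefSeq promoter windows of build GRCm38.p6, each of 300 bases from 250 before to 50 after the annotated start, and 9 of the 10 genes had one. B2m is at chr2:122147437-122147736 on the plus strand, H2-K1 at chr17:34000298-34000597 on the minus strand (the first of its start sites in the table) and H2-D1 at chr17:35262844-35263143 on the plus strand. Capitals mark a match to the interferon-stimulated response element core, which is GAAA, then 2 bases of any kind, then GAAA, in B2m and to the kappaB motif GGGNNTTCC in the heavy chains. Only these exact patterns are marked. Lower case therefore does not show that B2m lacks a kappaB site or that the heavy chains lack a response element.
B2m: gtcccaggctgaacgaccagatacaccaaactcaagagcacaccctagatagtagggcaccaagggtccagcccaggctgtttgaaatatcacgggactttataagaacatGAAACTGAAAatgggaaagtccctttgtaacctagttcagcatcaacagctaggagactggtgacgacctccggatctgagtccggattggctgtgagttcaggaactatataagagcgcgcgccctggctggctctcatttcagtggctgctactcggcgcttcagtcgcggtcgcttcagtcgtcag
H2-K1: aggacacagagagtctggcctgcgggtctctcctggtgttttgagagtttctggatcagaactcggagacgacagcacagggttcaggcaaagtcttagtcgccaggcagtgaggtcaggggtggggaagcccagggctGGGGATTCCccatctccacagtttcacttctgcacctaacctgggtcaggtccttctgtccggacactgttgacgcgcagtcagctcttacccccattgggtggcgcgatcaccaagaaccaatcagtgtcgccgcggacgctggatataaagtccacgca
H2-D1: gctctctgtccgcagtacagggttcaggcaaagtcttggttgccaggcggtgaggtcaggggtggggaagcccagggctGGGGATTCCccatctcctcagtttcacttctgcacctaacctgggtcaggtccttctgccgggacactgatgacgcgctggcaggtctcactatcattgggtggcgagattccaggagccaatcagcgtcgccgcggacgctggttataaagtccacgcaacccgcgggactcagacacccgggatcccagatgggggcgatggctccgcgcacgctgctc

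Both motifs were searched on both strands, and matches may overlap other motifs. Among the pathway genes B2m and Erap1 had a response element core, beginning at -139 and -4 from the start site, and 3.45% of 32544 promoter windows of that length held one. Each heavy chain had 1 kappaB match, at -111 in H2-K1 and -171 in H2-D1, against 5.85% of all windows, and the match lay within a run of 47 bases identical between these genes. A match describes letters only. Longer or looser forms of these motifs were not searched, so a window without a match may still hold such a form. The interferon-gamma-activated site motif TTCNNNGAA, present in 8.33% of windows, was found among the pathway genes in Psmb8, and the CCAAT box, present in 37.4%, in 6 of the genes.

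B2m encodes beta-2 microglobulin, the invariant light chain without which class I molecules do not reach the surface. Probe ILMN_2739999 gave intensities of 12621, 12429 and 13218 in the control arrays and 10348, 9349.6 and 9555 in the knockdown arrays. The highest knockdown array lay below the lowest control array, and the log2 fold change was -0.39 ± 0.082 (SE; limma's adjusted p = 0.00129). The groups were also separate on probe ILMN_1216746, with 12202, 11954 and 13685 in control and 10032, 9035 and 8780.3 in knockdown arrays, a log2 fold change of -0.44 ± 0.087 and limma's adjusted p = 0.000629. The third probe, ILMN_2670561, was under the background limit on all 6 arrays, at 90.5 to 118, and was not called.

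H2-D1 and H2-K1 encode the classical heavy chains, which bind the peptide and are highly alike in sequence. The probe sequences were not used here, so whether each H2 probe reads one gene only was not tested. For H2-D1, probe ILMN_2476267 gave 2067, 1913 and 1783 in control and 1520.4, 1334 and 1596 in knockdown arrays, without overlap, and a log2 fold change of -0.37 ± 0.090 (limma's adjusted p = 0.00415). The brightest H2-D1 probe, ILMN_2462745, gave 2450.3, 2174 and 2468 against 2265, 1992 and 2119.8. Its groups overlapped, and its log2 fold change of -0.15 was not called, with an interval from -0.33 to 0.026 (95%, limma) and an adjusted p = 0.327. ILMN_2944011 ranged from 228 to 244 in control and from 218 to 266 in knockdown arrays, at a log2 fold change of 0.047, and ILMN_2608090 was under the limit on all arrays. The gene's probes thus did not give one answer, and only 1 of 3 above the limit was called.

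No H2-K1 probe was called. The brightest, ILMN_2588139, gave 961, 738 and 696 in control and 868, 903 and 927 in knockdown arrays. The control replicate 1 value lay above all knockdown arrays and the other two controls below them. The log2 fold change was 0.19 with a 95% interval from -0.025 to 0.395 (limma's adjusted p = 0.303), and without control replicate 1 it was 0.33 with limma's adjusted p = 0.0202, which would be a call in the opposite direction to H2-D1. ILMN_2795520 ran from 125 to 166 over the 6 arrays and ILMN_2634603 from 114 to 137, around or under the background limit.

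The transporter associated with antigen processing is a heterodimer of Tap1 and Tap2 that pumps peptides into the endoplasmic reticulum. Tap2, measured by ILMN_2686721, had intensities of 229, 249 and 248 in control and 158, 171 and 188 in knockdown arrays. It showed the lowest log2 fold change of the 22 probes, -0.49 ± 0.087, with limma's adjusted p = 0.000187, and every array was above the limit. Tap1, measured by ILMN_1250409, gave 141, 136 and 150.0 in control and 143, 136 and 151 in knockdown arrays. These values straddle the limit on both sides of the comparison. The log2 fold change of Tap1 was 0.010 with a 95% interval from -0.16 to 0.18 on the background-containing scale, where a change in a dim transcript is compressed.

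Tapbp encodes tapasin, which bridges the transporter and the empty heavy chain and helps select peptides. Its probes ILMN_3155492 and ILMN_1226819 are annotated to different transcripts, NM_001025313 and NM_009318. The former gave 326, 283 and 328 in control and 315, 373 and 432 in knockdown arrays, the latter 245, 278 and 293 against 207, 287 and 268. The groups overlapped on both. The log2 fold changes were 0.25 and -0.11, with limma's adjusted p = 0.120 and 0.655. Without knockdown replicate 1, which had the lowest knockdown value on each, ILMN_3155492 reached 0.36 with limma's adjusted p = 0.0140.

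Psmb8, Psmb9 and Psmb10 encode the catalytic subunits that replace Psmb5, Psmb6 and Psmb7 in the immunoproteasome and shift cleavage towards peptides that fit class I. Psmb9, on ILMN_1242466, gave 185, 165 and 177 in control and 144, 141 and 128 in knockdown arrays, without overlap. Its log2 fold change was -0.35 ± 0.085 with limma's adjusted p = 0.00427, and knockdown replicate 3 lay under the background limit. Psmb8 on ILMN_1226683 gave 157, 145 and 169 against 172, 186 and 168, a log2 fold change of 0.16 that was not called (limma's adjusted p = 0.287), and its other probe, ILMN_2693940, stayed under the limit on all 6 arrays. Psmb10 had 2 probes with changes of opposite sign, neither called. ILMN_2914843 gave 1174, 969 and 975 against 848, 1032 and 1003, and ILMN_2757870 gave 947, 841 and 888 against 1005, 982 and 921, with log2 fold changes of -0.11 and 0.12.

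Psmb9 and Tap1 are transcribed in opposite directions from one stretch of chromosome 17, with start sites 226 bases apart, and their windows are shown because these neighbours gave different readings. The Psmb9 window is chr17:34187281-34187580 on the minus strand and the Tap1 window chr17:34187306-34187605 on the plus strand, so that 275 bases are shared and read on opposite strands. Neither held a response element core, a kappaB match or an interferon-gamma-activated site match, and no letters are in capitals.
Psmb9: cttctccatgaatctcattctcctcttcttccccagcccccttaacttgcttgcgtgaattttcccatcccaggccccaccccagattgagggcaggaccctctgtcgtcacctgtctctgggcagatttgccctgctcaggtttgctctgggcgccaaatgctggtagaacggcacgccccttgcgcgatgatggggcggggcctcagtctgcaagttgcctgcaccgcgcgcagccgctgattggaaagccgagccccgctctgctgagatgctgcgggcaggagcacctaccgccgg
Tap1: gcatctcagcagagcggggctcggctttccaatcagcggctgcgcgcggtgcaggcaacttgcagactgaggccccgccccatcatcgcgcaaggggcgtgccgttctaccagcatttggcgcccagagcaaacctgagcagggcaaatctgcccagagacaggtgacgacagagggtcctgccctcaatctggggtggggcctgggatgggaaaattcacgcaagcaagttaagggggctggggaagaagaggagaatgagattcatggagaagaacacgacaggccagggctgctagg

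The log2 ratio of Psmb9 to Tap1 within an array was 0.30 ± 0.079 in control and -0.060 ± 0.16 in knockdown arrays (SD, n = 3; exact permutation p = 0.1, two-sided). The groups did not overlap, and 0.1 is the smallest p that 3 against 3 arrays can give. Tap1 lay near the background limit, and the ratio changed by -0.36, close to the -0.35 of Psmb9 alone. Of the 4 such ratios computed, the other 3 set each immunoproteasome subunit against the constitutive one it replaces. The log2 ratio changed by 0.13 for Psmb8 over Psmb5, -0.17 for Psmb9 over Psmb6 and -0.013 for Psmb10 over Psmb7, all with overlapping groups (exact permutation p = 0.7, 0.3 and 1). After Benjamini-Hochberg adjustment over the 4 ratios, the exact permutation p of Psmb9 over Tap1 was 0.4.

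Erap1 encodes the aminopeptidase that trims peptides in the endoplasmic reticulum. Its 3 probes ran from 97.9 to 142 over all arrays, around or under the background limit, and none was called.

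**Figure D2:**
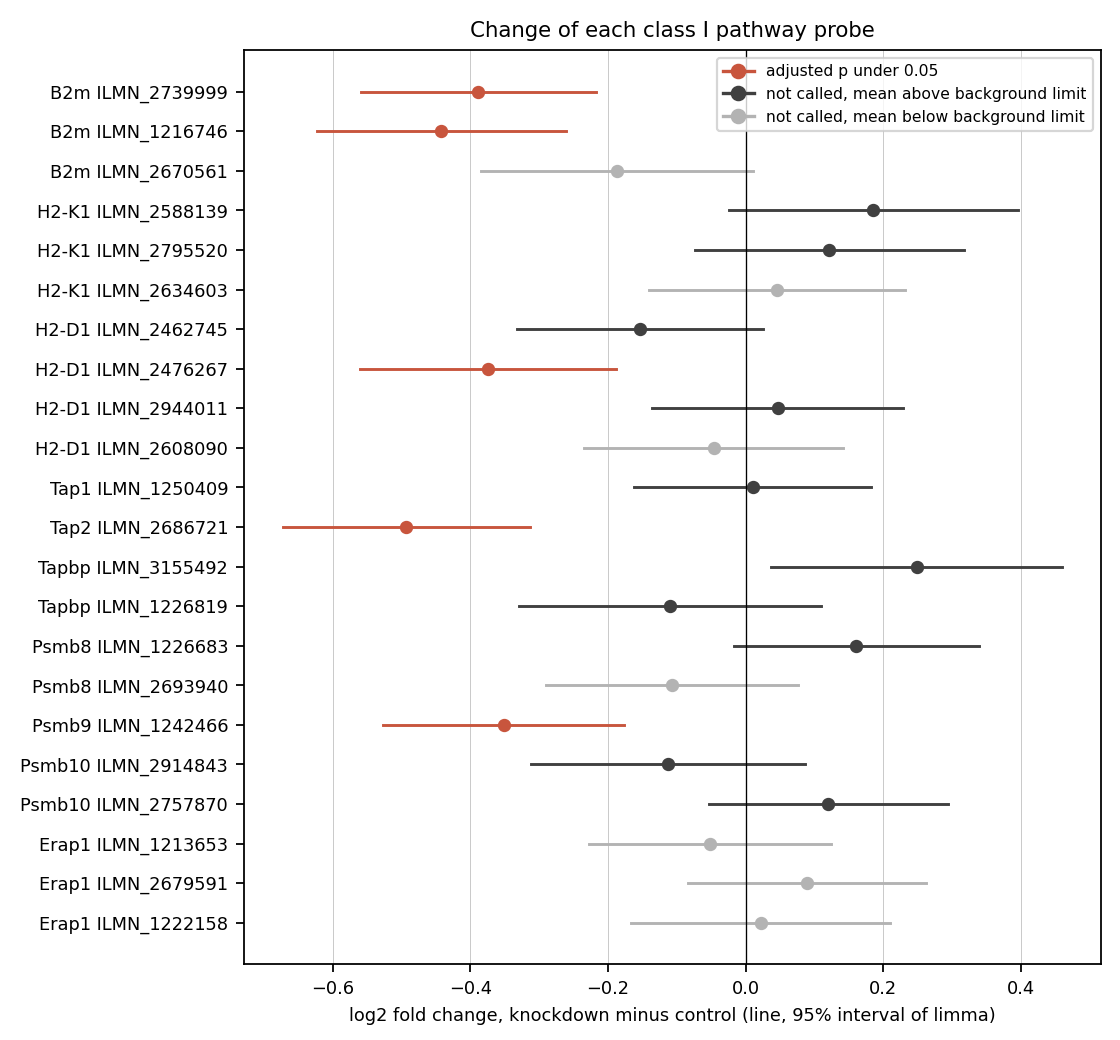
The log2 fold change of each pathway probe, knockdown minus control, is drawn with its 95% interval from limma, red for an adjusted p under 0.05, dark grey for other probes above the background limit and light grey for those below it. The 5 red points lie between -0.49 and -0.35, and among the other probes above the limit the intervals reach from -0.33 to 0.46.

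The calls depended on how background was treated. All 5 were kept with normexp correction and with an offset of 50. In another alternative the most frequent intensity was subtracted from each array, and results under 16 were set to 16. There, 1 of the 5 probes, B2m ILMN_2739999, kept its call, at limma's adjusted p = 0.0228. The others kept their direction, with Tap2 at -1.15, Psmb9 at -1.37, H2-D1 ILMN_2476267 at -0.40 and B2m ILMN_1216746 at -0.45, and limma's adjusted p from 0.0540 to 0.121.

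Among other class I and class I-like heavy chains, H2-T23 and H2-M3 fell. Of 25 genes listed, 22 were measured and 10 were above the limit by their brightest probe. In all 2 rose and 2 fell, where 10.9% of genes on the array were called higher and 11.1% lower by their brightest probe, and 42.3% of genes above the limit were called (20.8% higher, 21.5% lower). H2-T23 encodes Qa-1, a heavy chain that presents leader peptides of other class I molecules to receptors of natural killer cells. Its brightest probe, ILMN_2777474, gave 966, 831 and 984 in control and 609.6, 654 and 644 in knockdown arrays, and the log2 fold changes of its 3 probes were -0.54, -0.52 and -1.10, all called and all without overlap. H2-M3, which presents formylated peptides, gave 422, 527 and 465 against 302, 256 and 298, a log2 fold change of -0.72 ± 0.094 (limma's adjusted p = 4.50e-06). H2-Q7, which was not called, ran from 340.5 to 421 in control and from 309 to 482 in knockdown arrays, at -0.013. By the brightest probe, the uncalled genes of this list ranged from -0.20 for H2-T10 to 0.24 for H2-Bl. The groups were separate for H2-T10 (limma's adjusted p = 0.113) and overlapped for H2-Bl (limma's adjusted p = 0.121).

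The window of H2-T23 is shown because all of the gene's probes were called. It lies at chr17:36032652-36032951 on the minus strand, and capitals mark a response element core on the reverse strand, beginning at -124. Such a core was present in 3.45% of promoter windows. The window of H2-M3, whose only probe was also called, is not shown. That window held no response element core and no kappaB match, and 1 interferon-gamma-activated site match.
H2-T23: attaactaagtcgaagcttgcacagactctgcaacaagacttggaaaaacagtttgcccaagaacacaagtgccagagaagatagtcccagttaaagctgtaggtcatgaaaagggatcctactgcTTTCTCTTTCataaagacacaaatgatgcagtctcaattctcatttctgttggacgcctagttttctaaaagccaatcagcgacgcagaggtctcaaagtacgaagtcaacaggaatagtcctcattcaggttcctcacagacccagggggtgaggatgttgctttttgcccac

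Fcgrt and Cd1d1 rose in the same list. Fcgrt encodes the heavy chain of the neonatal Fc receptor, which also pairs with B2m, and went from 175, 182 and 161 in control to 235, 254 and 228 in knockdown arrays (log2 fold change 0.47 ± 0.085, limma's adjusted p = 0.000238). A second Fcgrt probe, ILMN_2917497, overlapped between groups and was not called. Cd1d1, a lipid-presenting relative, was under the limit on all 3 control arrays and at 124 to 141 in the knockdown. Its call, at limma's adjusted p = 0.0419, was lost in 8 of the alternatives: without control replicate 1, 2 or 3 or knockdown replicate 1 or 3, with an offset, with background subtracted, and with the replicate block (limma's adjusted p = 0.0511).

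In the peptide loading and folding list 1 of 8 genes fell and none of the others was called. Of these genes 6 were above the limit, where 42.3% of genes on the array were called. Pdia3 encodes ERp57, the disulfide isomerase joined to tapasin in the loading complex, and went from 9123, 9951 and 8389 to 6221, 5671 and 6354, with a log2 fold change of -0.59 ± 0.087 (limma's adjusted p = 2.41e-05). Calr, the chaperone calreticulin, was at 0.030 and Tapbpl, the peptide editor TAPBPR, at -0.16. The Canx probe was under the limit. Without knockdown replicate 1 a second gene of this list was called lower.

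The proteasome activators did not move together. Psme1, the alpha subunit of the interferon-inducible activator, rose from 1537, 1603 and 1804 in control to 4044, 4066 and 4580.2 in knockdown arrays, a log2 fold change of 1.36 ± 0.088 (limma's adjusted p = 8.24e-11). Its other probe, ILMN_2671204, gave 1.37, and on both the lowest knockdown array was above the highest control array. Psme2, the beta subunit that assembles with it, went from 855, 1008 and 1006 to 1123, 1098 and 1043, without overlap, but its log2 fold change of 0.19 was not called (limma's adjusted p = 0.185). Psme4, a nuclear activator, fell from 6687 ± 175 to 3829 ± 195 (SD, n = 3), or -0.81 ± 0.082. Of the 5 genes in the list, 1 rose, 1 fell and 3 were not called. All 5 were above the limit, where 42.3% of genes on the array were called.

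Of the 14 subunits of the constitutive core proteasome, limma called 0, with 11 above the limit and a median log2 fold change of -0.054. Among genes above the limit on the array, 42.3% were called. The changes of these subunits lay between -0.19 for Psmb3 and 0.20 for Psma2. A call for 1 higher subunit appeared with an offset of 50 or when probes were averaged per gene. Psma1, Psma3 and Psma6 were under the limit although every cell needs them, so a probe under the limit does not show that a transcript is missing. By the brightest probe, cytosolic and endosomal peptidases fell in 3 of 9 cases and rose in 2. All 5 were among the 7 above the limit, where 42.3% of genes on the array were called. Ide, the insulin-degrading enzyme, was not called on its brightest probe or on ILMN_2467534 but rose on ILMN_1238102, at a log2 fold change of 0.59 (limma's adjusted p = 2.67e-05), and is named after its value was seen. The oligopeptidases Prep and Thop1, which degrade peptides in the cytosol, rose by 0.48 and 0.45. Cpe, a carboxypeptidase of prohormone processing rather than of antigen processing, fell from 8046 ± 231 to 4427 ± 193, and Nrd1, nardilysin, had -0.30. The third gene that fell was the tripeptidyl peptidase Tpp2 at -0.38, named after its value was seen, with overlapping groups and a call lost in 8 alternatives (limma's adjusted p from 0.0501 to 0.441). With normexp correction 2 higher and 1 lower gene of this list were called, and with background subtracted 1 and 2.

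**Figure D3:**
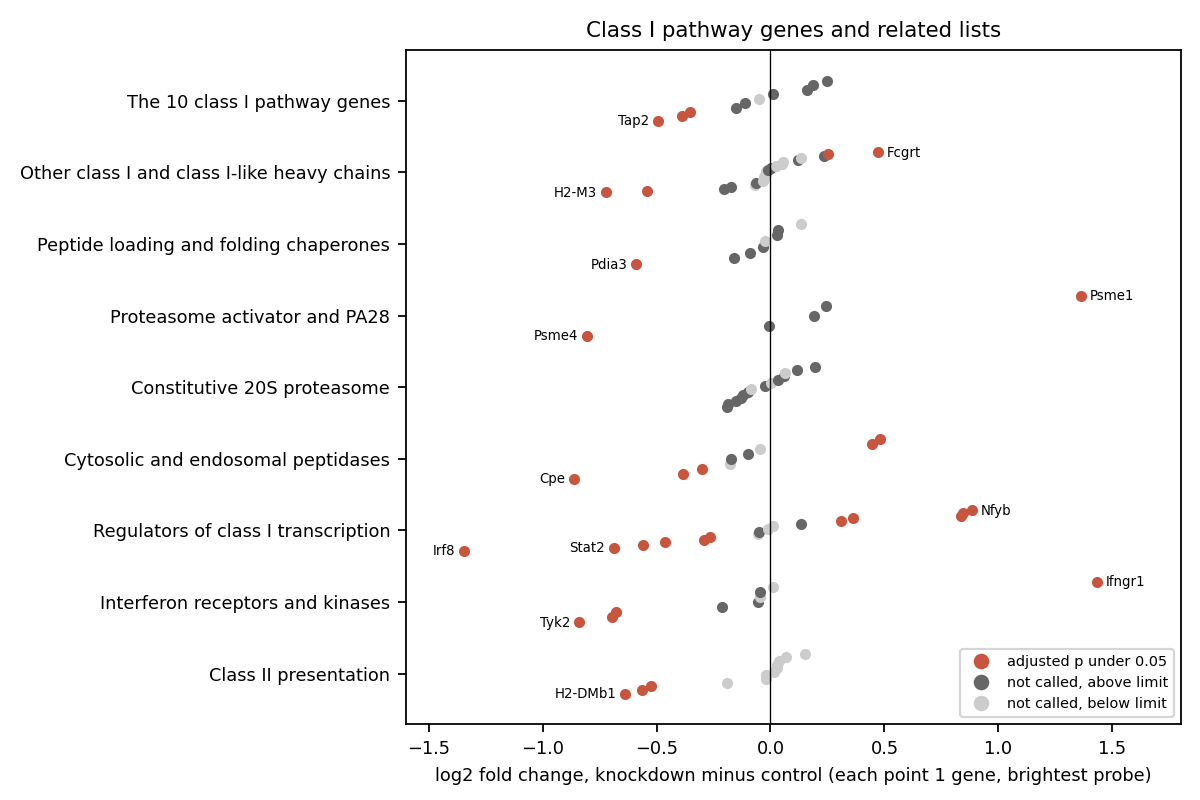
Each point is the log2 fold change, knockdown minus control, of a gene by its brightest probe, in rows for the 10 pathway genes and for 8 related lists, with red for an adjusted p under 0.05 and light grey for uncalled genes below the background limit. Psme1 at 1.36 and Ifngr1 at 1.43 stand at the right and Irf8 at -1.34, with 2 of 3 knockdown arrays under the limit, at the left, while the 10 pathway genes lie between -0.49 and 0.25.

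Regulators of class I transcription were called in 11 of 16 cases measured, 5 higher and 6 lower. All 11 were among the 13 above the limit, where 42.3% of genes on the array were called, and 8 were called with background subtracted or with normexp correction. Subunits of NF-kappaB rose. Relb and Nfkb2, the partners of the non-canonical pathway, went from 197, 212 and 219 to 362, 374 and 382 and from 355, 317 and 339 to 581, 629 and 601, with log2 fold changes of 0.83 and 0.84, and limma's adjusted p = 7.22e-08 and 7.31e-08. Rela, the canonical subunit, had 0.31. Of the interferon regulatory factors, 4 were listed. Irf8 went from 345, 311 and 299 to 108, 115 and 157, with 2 knockdown arrays under the limit. Its fitted log2 fold change of -1.34 therefore rests on 1 knockdown array with a measured level. Irf2, Irf9 and Stat2 had -0.56, -0.46 and -0.69. The brightest Irf1 probe had -0.27 at limma's adjusted p = 0.0424, whereas its 4 other probes were not called, and this call was lost in 8 alternatives (limma's adjusted p from 0.0680 to 0.467). Of the CCAAT-binding NF-Y subunits, Nfyb rose by 0.88 and Nfyc had -0.29, and Rfxap, a subunit of the RFX complex, rose by 0.36. Subtracting background ended the calls of Irf2 and Rfxap, at limma's adjusted p = 0.109 and 0.0989. The calls of Rela and Nfyc were lost in 2 and 4 alternatives, Rela without knockdown replicate 2 and Nfyc without control replicate 2 or knockdown replicate 1 among them. Irf1, Irf2, Irf9, Stat2, Rela, Nfyc and Rfxap were named after their values were seen. Nlrc5, the class I transactivator, was under the limit on all 6 arrays.

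Upstream of these, Ifngr1, the ligand-binding chain of the interferon-gamma receptor, rose from 779, 724 and 658 to 1791, 2031 and 1996, a log2 fold change of 1.43 ± 0.088 (limma's adjusted p = 3.50e-11). The receptor's other chain, Ifngr2, was at 338 to 399.7 in control and 349 to 368 in knockdown arrays on its brightest probe and was not called. The kinases Jak2 and Tyk2 fell, at -0.70 and -0.84, as did the feedback inhibitor Socs3 at -0.68. Of 9 genes in this list 1 rose, 3 fell and 5 were not called. All 4 calls were among the 7 genes above the limit, where 42.3% of genes on the array were called.

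Class II presentation genes were mostly under the limit, including Cd74, Ciita and the classical chains, and 3 of 12 were above it. Those 3 fell. Ifi30, the lysosomal thiol reductase, had a log2 fold change of -0.56, with a call lost after background subtraction (limma's adjusted p = 0.0527), and H2-DMb1 and H2-DMb2 had -0.64 and -0.52. The last pair are near-identical neighbours whose probes may share signal. Of the other cell type lists, 1 leukocyte marker rose and 1 fell (Csf1r at 0.44, and Laptm5 at least 1.27-fold lower), 1 endothelial marker rose (Egfl7 at 0.46) and of 7 fibroblast markers 1 rose and 1 fell (Col1a2, under the limit by its mean, and Dcn at -0.98). Of 10 proximal tubule markers 2 fell, Aqp1 at -4.77 and Cdh16 at -1.41. For both Cdh16 and Dcn only 1 of 3 knockdown arrays was above the limit, so these fitted changes include values at background. On the array 10.9% of genes were called higher and 11.1% lower by their brightest probe, and 42.3% of those above the limit were called. The call of Csf1r was lost with background subtracted (limma's adjusted p = 0.198). The call of Col1a2 was lost without control replicate 1 or 2 or knockdown replicate 2 or 3 (limma's adjusted p from 0.0882 to 0.210), with an offset and with background subtracted. Their part in the class I values was not tested.

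Position on the chromosome was compared next, because 7 of the 10 genes lie within the major histocompatibility complex on chromosome 17. In GRCm38.p6 these are Tapbp at chr17:33919478-33929290, H2-K1 at chr17:33996012-34000619, Psmb9 at chr17:34182030-34187330, Tap1 at chr17:34187556-34197225, Psmb8 at chr17:34198195-34201454, Tap2 at chr17:34204479-34216321 and H2-D1 at chr17:35263094-35267497. B2m is at chr2:122147687-122153082, Psmb10 at chr8:105935728-105938392 and Erap1 at chr13:74639573-74693205. These are spans of whole genes, and the positions of the probes within them were not used here. Between Tapbp and H2-D1, in the gene order of RefSeq assembly GRCm38.p6, 44 other genes were above the background limit. Of these, 8 were called higher and 8 lower, or 36.4%, against 42.3% of placed genes above the limit, and their median log2 fold change was -0.049. Tap1 and Psmb8, which were not called, lie between Psmb9 and Tap2, which fell, and H2-DMb1, the measured gene on the other side of Psmb9, fell as well. B2m lies on chromosome 2, where 20 of the 50 nearest genes above the limit were lower and 4 higher, with a median log2 fold change of -0.19. Among all genes above the limit, 21.5% were called lower and 20.8% higher, and the median of those placed was -0.0057. B2m itself was at -0.39, or -0.19 relative to the median of its 50 neighbours. Pdia3 is one of those 50 neighbours. Whether the local shift contributes to the values of B2m or Pdia3 was not tested.

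**Figure D4:**
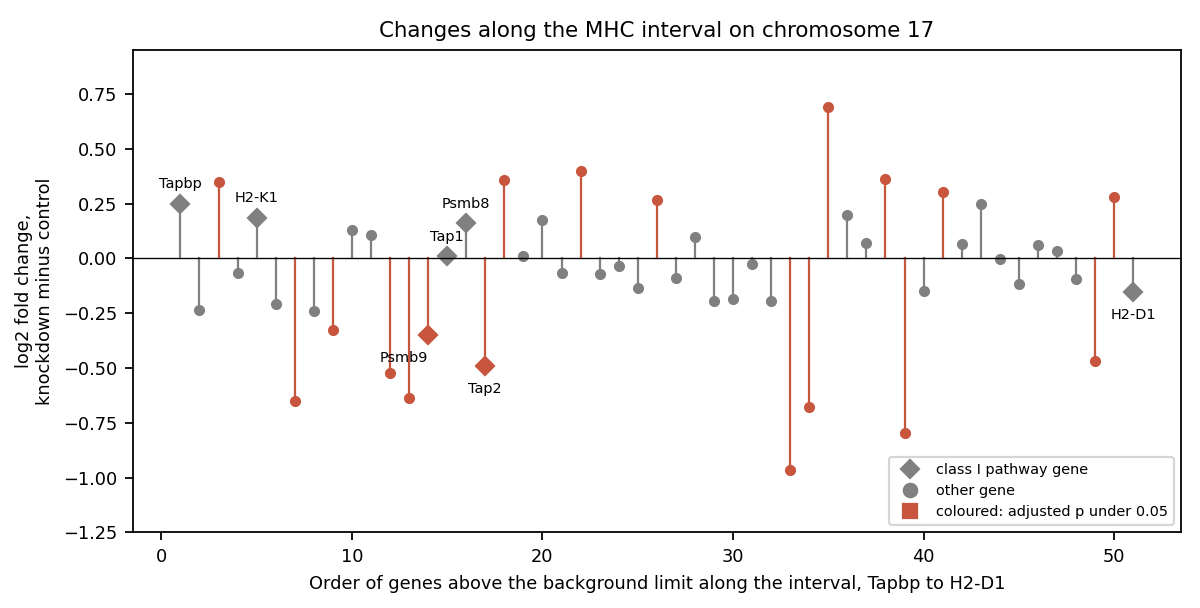
The log2 fold change, knockdown minus control, of the 51 genes above the background limit from Tapbp to H2-D1 on chromosome 17 is shown in gene order, with diamonds for the 7 pathway genes and red for an adjusted p under 0.05. Values run from -0.97 to 0.69, and Psmb9 and Tap2 are the pathway genes called.

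The genes whose pattern lay closest to B2m over the 6 arrays, after each was centred on its mean log2 intensity, were Hes6, Pcif1, Mad2l1, Acp2 and Synrg. Their root mean square differences from B2m were 0.028, 0.032, 0.039, 0.040 and 0.040 on the log2 scale, among 9637 genes above the limit. With 2 groups of 3 arrays this likeness is largely that of the group difference, and their log2 fold changes were -0.44, -0.33, -0.36, -0.46 and -0.41.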

How the data were processed

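RNA of 3 Control and 3 Glis2KD samples was hybridised with Cy3 label to an Illumina mouse array, per the labels' protocols. The authors deposited a linear intensity for every probe on each array; normalization and software: not given in the sources used here. As the values show, the arrays had been brought to 1 distribution (log2 medians differed by at most 0.00029) and background was not subtracted (lowest value 85.4). Intensities were transformed to log2 with no pseudocount and fitted over 45281 probes with limma 3.58.1 in R 4.3.3 (lmFit, eBayes without trend), with Benjamini-Hochberg adjustment at 0.05. Log2 fold changes include background. Symbols came from the platform annotation; 34807 of 34885 probes with 1 symbol matched RefSeq by Entrez identifier and 0 symbols changed. A gene in a list was represented by its brightest probe. Named genes were all pathway probes, Glis2, up to 4 called genes of each list by smallest p, and the 5 genes closest to B2m. Some uncalled genes fall outside this rule, among them H2-Q7, H2-T10, Calr, Tapbpl, Psme2, Psma2, Psmb3, Ifngr2 and Nlrc5. They are not counted as named genes in the alternatives. The 10 genes, the lists, the motifs, the ratios and the tests were chosen with earlier results of these data known. Tested on simulated data for knockdown against control on 45281 probes, the fit recovered 14% of probes changed by 0.25 on the log2 scale, 92% at 0.5 and 100% at 1 or 2. Only 50 probes were changed at each size, whereas 7065 were called in the data. The adjusted threshold was therefore stricter in the simulation, and these shares do not give the sensitivity in the data. The 17 alternatives comprise normalization, background, offset, filters, moderation, gene level, the replicate block and leaving out each array. Exact permutation tests used scipy 1.17.1. The number of arrays limits the precision.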

Additional observations from a re-analysis of the deposited data

How the results depend on the processing

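Over the 17 alternatives, 333 of 339 values of pathway probes kept their side of the threshold, 4 lost and 2 gained a call, and no called probe changed direction. Of 727 values of other named genes, 684 kept their side and 43 lost a call. Pathway probes called numbered 5, and 5 to 6 on leaving out an array in turn, with 1 after background subtraction, and 3 at gene level both with the mean of probes and with the brightest probe, where fewer features are tested; those 3 were B2m, Tap2 and Psmb9. Probes called on the array numbered 7065, against 3447 with background subtracted, 3739 and 4290 at gene level with the mean of probes and the brightest probe, and 6022 to 6521 without an array. The cause of the fall after background subtraction was not tested. With the replicate block there were 6790 calls on the array and 5 among pathway probes, and apart from Cd1d1 no call of a named gene changed. Same-numbered arrays did not deviate together (r from -0.086 to -0.041 over 18040 probes), so the numbers are not taken as pairs. The related lists had 37 called genes of 130, where 10.9% of genes on the array were called higher and 11.1% lower by their brightest probe. That count of 37 stayed within 1.5 times under each alternative. Probes near the background limit, among them Tap1, Psmb8, Psmb9 and Erap1, have compressed fold changes.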
